A study of Mus musculus with 6 samples.

Results

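Cathepsins are the proteases of the lysosome, and 10 mouse cathepsin genes were followed here in keratinocytes with and without iASPP. The 10 genes, *Ctsa*, *Ctsb*, *Ctsc*, *Ctsd*, *Ctsf*, *Ctsh*, *Ctsk*, *Ctsl*, *Ctss* and *Ctsz*, were chosen by name from the 55367 gene names of the count table. All 10 were among the 14916 genes that passed the filter on low counts and were tested. Cathepsins are made as inactive precursors and are carried to the lysosome by mannose 6-phosphate receptors. They become active in the acid of that compartment once their propeptide is cut off. In the epidermis they degrade the content of lysosomes, act on proteins of the cornifying layer and of melanosomes, and are held in check by cystatins, stefins and some serpins. Mice that lack cathepsin L lose hair periodically and have a thickened epidermis, and cathepsin D takes part in the activation of transglutaminase 1, an enzyme that cross-links the cornified envelope.

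The cells were primary keratinocytes from the skin of newborn mouse pups, plated on collagen in low-calcium medium. All cultures, controls included, carried loxP sites on both copies of *Ppp1r13l*, the gene of iASPP, together with a tamoxifen-activated Cre recombinase expressed from the ubiquitous Rosa26 locus, on a mixed C57BL/6 and 129/Sv background. Cultures were given tamoxifen when the medium was replaced after 24 h (iASPP KO, n = 3) or were left without it (iASPP WT, n = 3), so the drug and the loss of iASPP cannot be told apart. The dose is 1 mM in the sample labels and micromolar in the study's methods. By those methods the cultures were kept for several days after that medium change. The 6 libraries formed 3 batches with 1 library of each condition, and neither the labels nor the methods say that the batches were separate animals, so p-values measure only the spread between these cultures, which may be technical.

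Each library held 20202517 to 25157117 counted reads of 42 bases. In batch order (1, 2 and 3, as for all triplets of values that follow), *Ppp1r13l* itself gave 320, 395 and 139 counts after tamoxifen and 697, 1100 and 472 without it, a log2 fold change of −1.45 (SE 0.18, edgeR quasi-likelihood test with Benjamini-Hochberg adjustment, adjusted p = 0.00296). The reads counted on the gene include exons outside the floxed exon 8, so a shortened transcript could still give counts. The keratinocyte label held: *Krt14* and *Krt5*, the keratins of basal keratinocytes, were among the most abundant genes, and none of 8 keratinocyte markers passed the test in either direction by edgeR, nor by DESeq2 (1 was higher at an unadjusted p under 0.05 in edgeR). The summed level of these 8 markers was 26807 to 29694 CPM (read count per 1000000 of the library's TMM-scaled total) in iASPP KO and 27727 to 32495 CPM in iASPP WT.

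Of the 10 cathepsins, 8 are cysteine proteases of the papain fold, cathepsin D is an aspartic protease and cathepsin A is a serine carboxypeptidase. In the papain-fold members the coding sequence around the catalytic cysteine is among the most conserved, and reads of 42 bases must be able to tell these genes apart. The stretch around the catalytic residue is printed here for 6 members, of which *Ctsd* and *Ctsa* belong to the other protease classes. The codon of the catalytic cysteine, of the first catalytic aspartate (*Ctsd*) or of the catalytic serine (*Ctsa*) is in capitals. Sequences were read 5′ to 3′ on the coding strand from GENCODE vM21 transcripts (GRCm38).
Ctsl: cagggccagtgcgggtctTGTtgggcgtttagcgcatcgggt
Ctsk: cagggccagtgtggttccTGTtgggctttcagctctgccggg
Ctss: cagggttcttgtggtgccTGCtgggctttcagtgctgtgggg
Ctsb: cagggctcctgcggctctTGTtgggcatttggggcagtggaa
Ctsd: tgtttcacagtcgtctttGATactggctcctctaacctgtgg
Ctsa: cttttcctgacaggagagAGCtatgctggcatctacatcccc

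The catalytic codon was codon 138 of 334 in *Ctsl*, 139 of 329 in *Ctsk*, 147 of 340 in *Ctss*, 108 of 339 in *Ctsb*, 97 of 410 in *Ctsd* and 191 of 492 in *Ctsa*. In *Ctsl*, *Ctsk* and *Ctss* the stretch began with the last 3 bases of exon 4 and continued in exon 5. For *Ctsl*, on the minus strand, these pieces lie at chr13:64367860-64367862 and chr13:64367054-64367092. For *Ctsk* they lie at chr3:95501704-95501706 and chr3:95502582-95502620, and for *Ctss*, its neighbour on the plus strand, at chr3:95543160-95543162 and chr3:95545333-95545371. The stretch of *Ctsb* crosses from exon 4 to exon 5 (chr14:63135699-63135722 and chr14:63136407-63136424, plus strand), that of *Ctsd* is within exon 3 of 9 (chr7:142383458-142383499, minus strand) and that of *Ctsa* within exon 7 of 16 (chr2:164835225-164835266, plus strand).

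Even here the genes were distinct at read length. *Ctsl* and *Ctsk* differed at 10 of the 42 bases, *Ctsk* and *Ctss* at 10, *Ctsl* and *Ctsb* at 11, and *Ctsl* and *Ctss* at 16. Over all 45 pairs of the 10 members, the longest identical run between the principal transcripts was 18 bases, in *Ctsf* and *Ctsh*, so no 42-base read of these transcripts could match 2 members exactly. Another kind of sharing concerned *Ctsd*, because 808 of its 2351 exon bases (34.4%) also belong to the annotated gene *Gm49369* on the same strand. *Gm49369* had 0 counts in all 6 libraries, and the counting program by default assigns no read that lies on 2 genes, so the *Ctsd* values come from the rest of the gene. *Ctsl* shared 395 of its 6489 exon bases (6.09%) with *Gm49230*, which also had 0 counts throughout. In both conditions the same bases were lost, and the ratio between conditions does not use the gene's length.

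Of the 10 cathepsins, 2 were higher in iASPP KO cells: *Ctsl* and *Ctsd*. *Ctsl* was 2.28-fold and *Ctsd* 1.57-fold higher than in iASPP WT cells. None was lower. For comparison, 2.17% of all 14916 tested genes were called higher and 1.95% were called lower (edgeR, adjusted p under 0.05). At an unadjusted p under 0.05, 6 of the 10 members were higher and none lower, where 8.66% of all tested genes were higher and 8.09% lower at that threshold. With DESeq2, 3 members were called higher (*Ctsl*, *Ctsd* and *Ctsb*) and none lower, where 3.91% of 12291 genes with an adjusted p were called higher. The estimates were positive for 9 of 10 members, with a median log2 fold change of 0.35 beside 0.0057 over all tested genes. In 7 of the 10 genes the iASPP KO library was the higher in each of the 3 batches, a pattern shown by 19.5% of all tested genes.

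**Figure D1:**
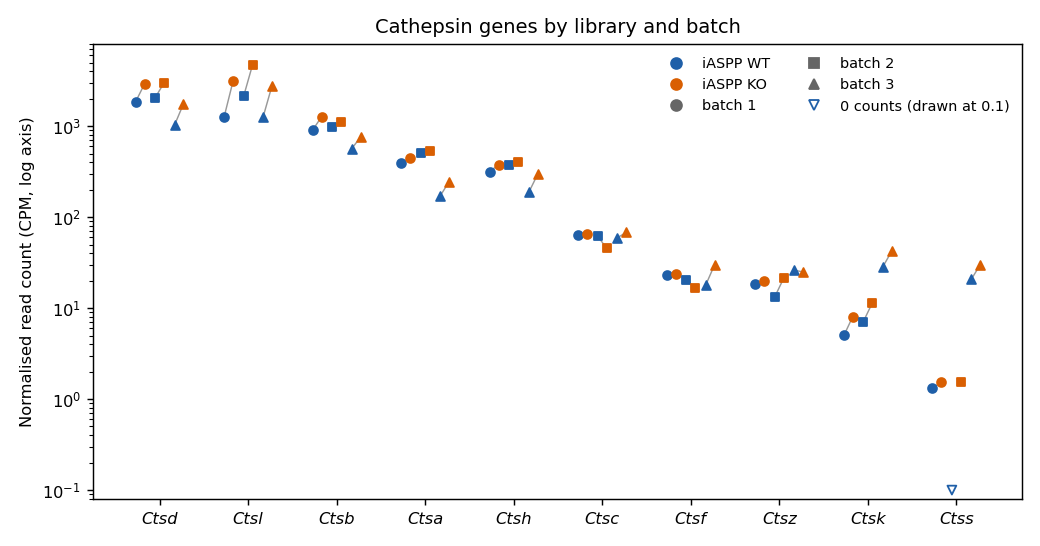
Normalised read count (CPM, log axis) of each cathepsin gene in each of the 6 libraries, with iASPP WT in blue and iASPP KO in orange, the batch given by the symbol and a line joining the 2 libraries of a batch. *Ctsl* rose in every batch, *Ctsk* and *Ctss* were highest in both libraries of batch 3, and the open triangle marks the *Ctss* value with 0 counts.

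*Ctsl* (GRCm38, chr13:64359337-64370890, minus strand) encodes cathepsin L, an endopeptidase that degrades proteins in the lysosome and, in keratinocytes, is also found in melanosomes. It gave 70152, 105053 and 65431 counts with tamoxifen, or 3120, 4708 and 2775 CPM. The iASPP WT libraries gave 27203, 52226 and 28467 counts, or 1272, 2139 and 1266 CPM. All iASPP KO libraries were above all iASPP WT libraries, and batch 2 was the highest within each condition. The means were 3534 ± 1031 CPM with tamoxifen and 1559 ± 502 CPM without (SD, n = 3 each), and the log2 fold change was 1.19 (SE 0.11, 95% interval 0.95 to 1.42, edgeR with Benjamini-Hochberg adjustment, adjusted p = 0.00109). Within batches 1, 2 and 3 the log2 fold change was 1.29, 1.14 and 1.13, so the size of the difference varied less between batches than the level did. Among all tested genes *Ctsl* was 4th by p-value and 24th by mean CPM. With any 1 batch left out the estimate was 1.14 to 1.22 and the call held.

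*Ctsd* (chr7:142375911-142388038, minus strand) encodes cathepsin D, the main aspartic protease of the lysosome. It gave 65412, 66437 and 41414 counts (2909, 2977 and 1756 CPM) in iASPP KO. The iASPP WT libraries gave 39723, 50239 and 23212 counts (1858, 2058 and 1032 CPM). The groups overlapped, since the iASPP KO library of batch 3 lay below both iASPP WT libraries of batches 1 and 2, while in every batch the iASPP KO library was the higher. The means were 2548 ± 686 and 1649 ± 544 CPM (SD, n = 3 each), with a log2 fold change of 0.65 (SE 0.11, 95% interval 0.41 to 0.89, edgeR with Benjamini-Hochberg adjustment, adjusted p = 0.0098). Within the batches it was 0.65, 0.53 and 0.77. Without the batch term in the model neither *Ctsd* nor *Ctsl* passed (adjusted p = 0.973 for both by edgeR with Benjamini-Hochberg adjustment), and no other gene of the table did.

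**Figure D2:**
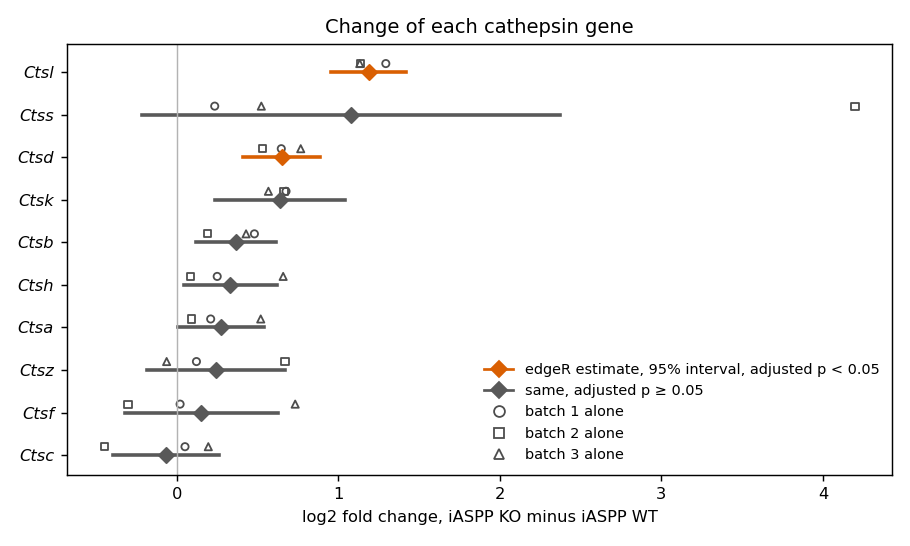
Log2 fold change (iASPP KO minus iASPP WT) of each cathepsin gene, with the edgeR estimate and its 95% interval (diamond and bar, orange where adjusted p was under 0.05) and the value within each batch (open symbols). The intervals of *Ctsl* (0.95 to 1.42) and *Ctsd* (0.41 to 0.89) lie to the right of 0. *Ctsk*, *Ctsb*, *Ctsh* and *Ctsa*, which did not pass after adjustment, also had intervals above 0, with lower ends of 0.23, 0.12, 0.04 and 0.006. The batch 2 point of *Ctss* is set by the prior count because the iASPP WT library had 0 counts.

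*Ctsb* and *Ctsk* pointed the same way without passing the test. *Ctsb* (chr14:63122462-63145923), which encodes cathepsin B, an endopeptidase that also removes dipeptides from the C-terminus, had 1267, 1123 and 759 CPM in iASPP KO and 908, 986 and 564 CPM in iASPP WT. Its means were 1050 ± 262 and 819 ± 224 CPM (SD, n = 3 each), and its log2 fold change was 0.37 (SE 0.11, 95% interval 0.12 to 0.61, edgeR with Benjamini-Hochberg adjustment, adjusted p = 0.109). It passed with DESeq2 (adjusted p = 0.0217), in edgeR without the filter on low counts (adjusted p = 0.0409), and without batch 3 (adjusted p = 0.0428), and its adjusted p ran from 0.0217 to 0.977 over the 12 alternatives tried. *Ctsk* (chr3:95499256-95509362) encodes cathepsin K, the collagen-degrading cathepsin best known from osteoclasts and also made by fibroblasts. It gave 181, 253 and 995 counts in iASPP KO and 107, 174 and 640 in iASPP WT, with the libraries of batch 3 far above the others in both conditions. Its log2 fold change was 0.64 (SE 0.18, 95% interval 0.23 to 1.04, adjusted p = 0.0874 by edgeR with Benjamini-Hochberg adjustment) and 0.68, 0.66 and 0.57 within the batches.

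*Ctss* (chr3:95526786-95556403) encodes cathepsin S, which trims the invariant chain in antigen-presenting cells. It gave 35, 34 and 706 counts in iASPP KO and 28, 0 and 468 counts in iASPP WT. The 0 counts in the iASPP WT library of batch 2 allow a level of up to 0.123 CPM (3 counts, counting error only), beside 1.52 CPM in the iASPP KO library of the same batch. Between conditions the values overlapped, and the difference between batch 3 and the other batches was larger than that between conditions. Within batches 1 and 3 the log2 fold change was 0.23 and 0.52. The fitted value of 1.08 (SE 0.58, 95% interval −0.22 to 2.37, edgeR with Benjamini-Hochberg adjustment, adjusted p = 0.405) moved with each batch left out, to 1.42 without batch 1, 0.42 without batch 2 and 2.36 without batch 3. Without the filter on low counts the same gene had an adjusted p of 0.0235 (edgeR), in a range of 0.0235 to 0.99 over 11 alternatives.

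Both *Ctss* and *Ctsk* stood apart in batch 3, and so did some markers of other skin cells. *Lyz2*, the lysozyme of macrophages, had 108, 50 and 1392 counts in iASPP KO and 61, 27 and 1113 in iASPP WT. *Mpeg1*, a macrophage pore-forming protein, had 9, 16 and 144 counts against 9, 5 and 76. *Csf1r* and *Cd68* went the other way and were lowest in both libraries of batch 3. Over the 15 macrophage and leukocyte markers, 9 were tested, with a median log2 fold change of 0.85 and 8 estimates above 0. Several of these estimates rest on few counts, so the median is poorly determined. The standard error was 0.65 for *Mpeg1*, the gene at the median. It was 1.06 for *Adgre1*, 1.11 for *Ptprc*, 1.30 for *Aif1*, 1.42 for *Fcer1g* (the estimate below 0) and 1.99 for *Laptm5*. Of the 9, 1 was higher and none lower, beside 2.17% and 1.95% of all tested genes. That gene was *Csf1r*, the receptor of macrophage colony-stimulating factor, with 415, 641 and 123 counts in iASPP KO and 194, 368 and 43 in iASPP WT. Its log2 fold change was 1.11 (SE 0.21, edgeR with Benjamini-Hochberg adjustment, adjusted p = 0.0206), and it did not pass without batch 1 (adjusted p = 0.0612) or without batch 2 (adjusted p = 0.112). The summed level of the list was 67.1 to 93.3 CPM in iASPP KO and 44.8 to 71.8 CPM in iASPP WT. Of the markers with few counts, *C1qa* was at 0 in both libraries of batches 1 and 2. *Tyrobp* was at 0 in the iASPP WT libraries of those batches and *Ptprc* at 0 in the iASPP WT library of batch 2. In batch 3, *C1qa*, *Tyrobp* and *Ptprc* had 48, 53 and 50 counts in iASPP KO and 13, 27 and 48 in iASPP WT. *Mpeg1* was singled out after its values were seen.

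Fibroblast markers were also highest in batch 3 in both conditions. *Col1a2*, a chain of type I collagen, had 164, 166 and 4188 counts in iASPP KO and 214, 300 and 5545 in iASPP WT, and *Col3a1*, the chain of type III collagen, 93, 94 and 3210 against 120, 282 and 5106. Of the 10 fibroblast markers, all tested, these 2 were lower and none higher, beside 1.95% and 2.17% of all tested genes. Their log2 fold changes were −0.55 (adjusted p = 0.0428) and −0.87 (adjusted p = 0.0269) by edgeR with Benjamini-Hochberg adjustment. Over the 10 markers the median was −0.46, with 9 estimates below 0. The call of *Col1a2* was lost without any 1 batch (adjusted p = 0.105, 0.275 and 0.238 without batches 1, 2 and 3) and that of *Col3a1* without batch 2 (0.157) or batch 3 (0.0715). Of the others, *Pdgfra*, named after its values were seen, had the estimate farthest above 0 (log2 fold change 0.81, unadjusted p = 0.0375, adjusted p = 0.258). The summed level of the 10 markers was 56.8, 77.6 and 512 CPM in iASPP KO and 65.8, 71.1 and 743 CPM in iASPP WT, so in batch 2 it was the higher in iASPP KO. In a culture measured as a whole, fewer cells of a type and less RNA per cell cannot be told apart, and what part these cells had in the values of *Ctss* and *Ctsk* was not tested. The levels of *Ctsl* and *Ctsd* were no higher in batch 3 than in batches 1 and 2 in either condition. What part these cells had in the values of *Ctsl* and *Ctsd* was not tested either. Melanocyte markers (6 tested, none called by edgeR or DESeq2 and none at an unadjusted p under 0.05) summed to 394 to 1034 CPM in iASPP KO and 341 to 1086 CPM in iASPP WT, and endothelial markers (2 of 3 tested, with the same result) to 2.33 to 11.97 and 2.15 to 5.16 CPM.

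**Figure D3:**
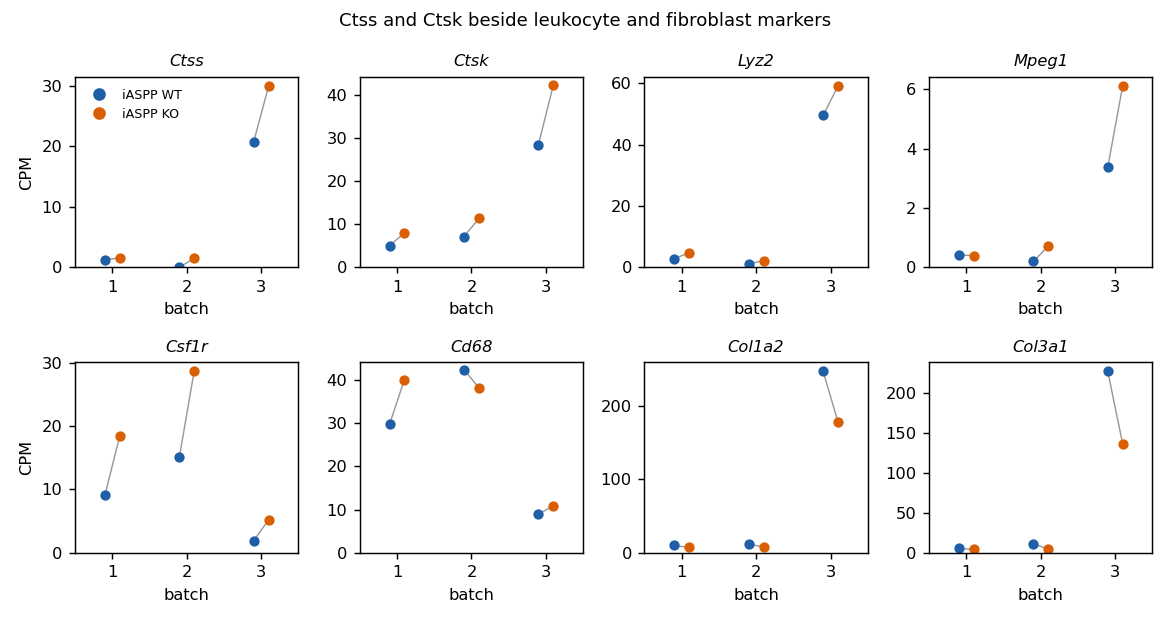
Normalised read count (CPM, linear axes of different range) of *Ctss*, *Ctsk*, 4 macrophage markers and 2 fibroblast markers by batch, with iASPP WT in blue, iASPP KO in orange and a line joining the libraries of a batch. *Ctss*, *Ctsk*, *Lyz2*, *Mpeg1*, *Col1a2* and *Col3a1* are highest in batch 3 and *Csf1r* and *Cd68* lowest, and the collagens lie lower in iASPP KO where *Ctss* and *Ctsk* lie higher.

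The remaining 5 members were not called in either direction by edgeR. *Ctsh* (chr9:90054152-90076089), the aminopeptidase cathepsin H, had 377, 401 and 295 CPM in iASPP KO and 317, 377 and 187 CPM in iASPP WT, with a log2 fold change of 0.33 (SE 0.13, adjusted p = 0.226 by edgeR with Benjamini-Hochberg adjustment). *Ctsa* (chr2:164832873-164841032), the carboxypeptidase that protects β-galactosidase and neuraminidase 1 in the lysosome, had 450, 535 and 245 CPM against 389, 503 and 171 CPM, with a log2 fold change of 0.27 (SE 0.12, adjusted p = 0.285). For both genes every within-batch value was above 0 and that of batch 3 was the highest. In batch 3 it was 0.66 for *Ctsh* and 0.52 for *Ctsa*, and in batch 2 it was 0.09 for each.

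The 3 least abundant of these were *Ctsc*, *Ctsf* and *Ctsz*, and their direction differed between batches. *Ctsc* (chr7:88278085-88310888) encodes the dipeptidyl peptidase that activates the granule serine proteases of immune cells, and its loss in people causes thickened skin of the palms and soles. It had 66.1, 45.3 and 67.9 CPM in iASPP KO and 63.8, 61.8 and 59.3 CPM in iASPP WT, and was the only member with an estimate below 0 (log2 fold change −0.07, SE 0.15, 95% interval −0.39 to 0.26, edgeR with Benjamini-Hochberg adjustment, adjusted p = 0.88). A change of *Ctsc* by more than 0.39 on the log2 scale in either direction lay outside that interval. *Ctsf* (chr19:4855130-4860918), a cysteine endopeptidase with a long propeptide, had 23.4, 16.6 and 30.0 CPM against 23.1, 20.5 and 18.0 CPM, and *Ctsz* (chr2:174427493-174439039), a carboxypeptidase, had 20.1, 21.3 and 25.0 CPM against 18.4, 13.4 and 26.1 CPM. Their log2 fold changes were 0.15 (SE 0.21, adjusted p = 0.80) and 0.24 (SE 0.19, adjusted p = 0.614) by edgeR with Benjamini-Hochberg adjustment. The sign depended on 1 batch for *Ctsc*, which was at 0.13 without batch 2, and for *Ctsf*, which was at −0.14 without batch 3.

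Together the 10 genes took 0.755%, 0.932% and 0.642% of all counted reads after tamoxifen, and 0.486%, 0.598% and 0.375% without it. The iASPP KO share was thus 1.55, 1.56 and 1.71 times the iASPP WT share within the batches. Most of these reads came from few genes, as *Ctsl*, *Ctsd* and *Ctsb* held 83.2% to 89.5% of them in every library. *Ctsl* alone held 37.8%, 47.8% and 46.1% of the cathepsin reads in iASPP KO and 26.2%, 34.7% and 37.5% in iASPP WT. The ratio of *Ctsl* to *Ctsd* counts was 1.07, 1.58 and 1.58 in iASPP KO and 0.685, 1.04 and 1.23 in iASPP WT, so it was higher in iASPP KO in each batch. Shares of reads depend on gene length as well as on the number of transcripts.

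**Figure D4:**
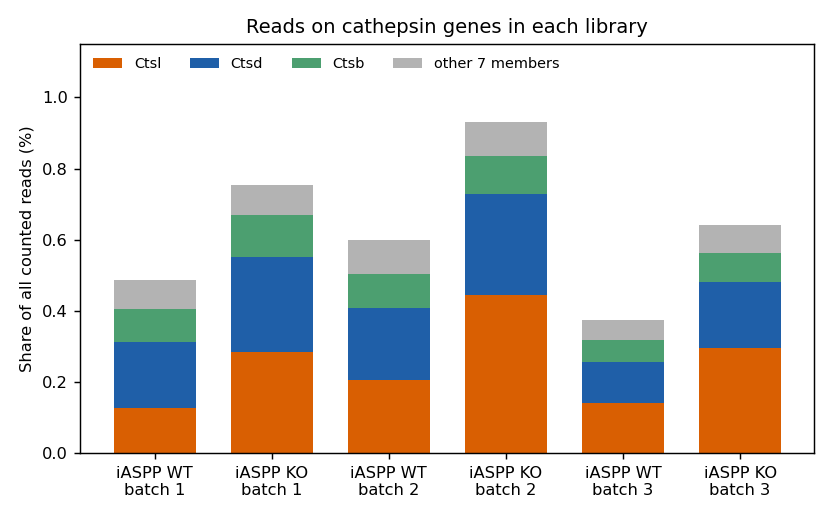
Share of all counted reads (%) that fell on the 10 cathepsin genes in each library, stacked as *Ctsl*, *Ctsd*, *Ctsb* and the other 7. Within each batch the iASPP KO bar is the taller (0.755%, 0.932% and 0.642% against 0.486%, 0.598% and 0.375%), and the *Ctsl* segment grows the most.

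By summed exon length the 6 highest members had the same order in both conditions. As CPM per kilobase of summed exon length, *Ctsd* stood at 1084 ± 292 with tamoxifen and 701 ± 231 without (mean ± SD of 3 libraries), and *Ctsl* at 545 ± 159 and 240 ± 77.4. *Ctsb* followed with 173 ± 43.3 and 135 ± 37.1 CPM per kilobase. Next came *Ctsa* (87.0 ± 31.7 and 75.2 ± 35.8) and *Ctsh* (79.5 ± 12.4 and 65.3 ± 21.7), which did not differ from each other beyond their spread. *Ctsz*, *Ctsk*, *Ctsc*, *Ctss* and *Ctsf* lay at 4.63 to 15.3 CPM per kilobase in iASPP KO and 4.08 to 13.4 in iASPP WT, and the place of *Ctsk* and *Ctss* among them depended on batch 3. The order of the first 5 depended on the length used. With the length of the principal transcript, 1971 bases for *Ctsl* where its summed exons span 6489, *Ctsl* had 1793 CPM per kilobase in iASPP KO and *Ctsd* 1198. By that length *Ctsh* (221 in iASPP KO, 182 in iASPP WT) lay beside *Ctsb* (221 and 173) and above *Ctsa* (113 and 97.3). By summed exon length without the bases shared with same-strand neighbours *Ctsd* had 1651 and *Ctsl* 580 in iASPP KO.

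Other cathepsin genes had few or no reads in these cells. Of 13 further members of the family in the table, 1 was tested: *Ctso*, another papain-like cysteine protease, with 29, 6 and 42 counts in iASPP KO and 24, 54 and 64 in iASPP WT. Its log2 fold change was −1.06 (SE 0.79, edgeR with Benjamini-Hochberg adjustment, adjusted p = 0.587). The other 12 reached at most 17 counts in a library, and 5 of the 13 had 0 counts throughout, which allows up to 0.123 to 0.140 CPM per library (3 counts, counting error only). The 5 were *Ctsg*, the neutrophil serine protease, and the placental genes *Ctsj*, *Cts6*, *Cts7* and *Cts8*.

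Several inhibitors of cathepsins were higher in iASPP KO cells as well. Of the 24 listed cystatins, stefins and serpins, 20 were in the table and 16 were tested. Of these, 5 were higher and none lower, beside 2.17% and 1.95% of all tested genes. Their median log2 fold change was 0.65 (0.0057 over all tested genes). *Csta1*, a stefin A gene, had 127, 104 and 209 CPM in iASPP KO and 63.9, 59.8 and 59.2 CPM in iASPP WT, with a log2 fold change of 1.20 (SE 0.18, edgeR with Benjamini-Hochberg adjustment, adjusted p = 0.0069). *Cstb*, the ubiquitous stefin B, which binds cathepsins L, H and B, had 328, 374 and 244 CPM against 211, 287 and 142 CPM (log2 fold change 0.60, SE 0.12, adjusted p = 0.0217). The other 3 were *Csta3* (1.90, adjusted p = 0.0281), *Serpinb3b* (1.17, adjusted p = 0.0222) and *Stfa1* (1.02, adjusted p = 0.0237), all by edgeR with Benjamini-Hochberg adjustment. Read-length stretches of *Stfa1* (36.1%) and *Serpinb3b* (21.6%) also occur in near-identical genes, so the counts of these paralogs are uncertain, whereas the share was 1.46% for *Csta1* and 0 for *Cstb*. *Csta3* was not matched to the reference transcripts. The most abundant of the list, *Stfa3*, a stefin A gene, was at a log2 fold change of 0.70 (adjusted p = 0.154) and *Serpinb6a*, a serpin with a broad range of targets, at −0.15 (adjusted p = 0.671). The count of 5 fell to 1 without batch 1 and to 2 without batch 2, and was 7 without batch 3. Over all tested genes the higher calls in those fits were 169 of 15437, 174 of 15236 and 793 of 15261. *Csta1* held in each case.

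Among 22 tested genes that sort, activate or acidify the lysosomal proteases, 2 were higher and none lower. Over all tested genes 2.17% were higher and 1.95% lower. The median log2 fold change of the 22 was 0.12. The 2 higher genes encode subunits of the proton pump that acidifies the lysosome. *Atp6v1a* had 631, 621 and 502 CPM in iASPP KO and 390, 459 and 315 CPM in iASPP WT (log2 fold change 0.60, SE 0.11, edgeR with Benjamini-Hochberg adjustment, adjusted p = 0.0172). *Atp6v0d1* had 126, 144 and 93.5 CPM against 84.7, 120 and 53.4 CPM (0.54, SE 0.13, adjusted p = 0.048). The most abundant of the list were *Psap*, the saposin precursor that also carries procathepsin D to the lysosome, at 0.81 (adjusted p = 0.0724), and *Lamp1*, a membrane protein of the lysosome, at 0.31 (adjusted p = 0.189). Neither pump gene passed without batch 1 or without batch 2, and the count was 0 and 1 in those fits and 5 without batch 3.

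Of 27 other lysosomal hydrolases and accessory proteins, all tested, 1 was higher and none lower. That is near the share over all tested genes (2.17% higher, 1.95% lower). The median log2 fold change of the list was 0.16. The count was 0 without batch 1 or batch 2. *Npc2*, a cholesterol carrier, was at 0.29 (adjusted p = 0.23) and *Asah1*, acid ceramidase, at 0.22 (adjusted p = 0.435). The TFEB family of transcription factors, which drive lysosomal genes, had 3 tested members at −0.38 to 0.11 and none called by edgeR or DESeq2 (none at an unadjusted p under 0.05 either). *Mitf* was at 0.11 and *Tfe3* at 0.00.

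The 10 tested transglutaminases and envelope substrates were split. *Tgm3*, *Tgm1* and *Ppl* were higher, and *Flg2* and *Flg* were lower, beside 2.17% and 1.95% of all tested genes. *Tgm1*, the transglutaminase that cathepsin D helps to activate, had 185, 148 and 35.3 CPM in iASPP KO and 106, 108 and 25.5 CPM in iASPP WT (log2 fold change 0.57, SE 0.12, edgeR with Benjamini-Hochberg adjustment, adjusted p = 0.0292). *Tgm3*, the transglutaminase of hair and epidermis, was at 1.45 (SE 0.34, adjusted p = 0.0428) and *Ppl*, the envelope protein periplakin, at 0.52 (SE 0.11, adjusted p = 0.034). *Flg2*, a filaggrin relative, was at −2.16 (SE 0.33, adjusted p = 0.0071) and *Flg*, the gene of filaggrin, at −0.89 (SE 0.21, adjusted p = 0.0428). *Evpl*, envoplakin, was at 0.16 (adjusted p = 0.571). *Tgm3* did not pass with DESeq2 (adjusted p = 0.165) or with robust dispersion in edgeR (adjusted p = 0.42), and its log2 fold change was 0.83 without batch 3. *Tgm1* and *Ppl* did not pass without batch 1 (adjusted p = 0.222 and 0.181) or without batch 2 (0.112 and 0.251). *Flg* did not pass with robust dispersion (adjusted p = 0.0658) and was at −0.53 without batch 3. The count of higher genes was 1 without batch 1 and 6 without batch 3. None of 7 serine protease genes that cathepsin C activates was abundant enough to be tested.

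**Figure D5:**
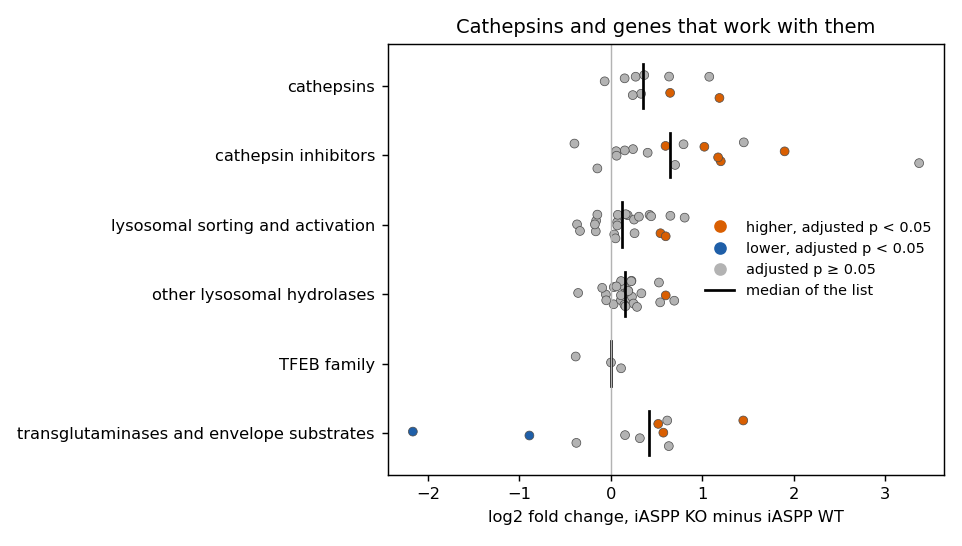
Log2 fold change (iASPP KO minus iASPP WT) of each tested gene in the 10 cathepsins and 5 lists of genes that inhibit them, bring them to the lysosome, work beside them or form the cornified envelope, with each list's median as a bar and the called genes in orange (higher) or blue (lower). The medians are 0.35 for the cathepsins, 0.65 for the inhibitors and 0.12, 0.16, 0.0027 and 0.42 for the lists below them, and the only lower calls are the 2 filaggrin genes.

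*Ctsl* had the smallest p-value of the members, and the genes whose log2 CPM followed it most closely over the 6 libraries were *Tsc22d1* (Pearson r = 0.996), *Osbpl2* (0.992), *Vegfa* (0.992), *Sh3gl2* (0.991) and *Defb14* (0.987). These correlations describe 6 libraries that share batches and conditions, and they were the 5 highest of all tested genes outside the members. *Defb14*, a β-defensin of epithelia, rose from 11.1 to 42.1 CPM (log2 fold change 1.84, SE 0.17, edgeR with Benjamini-Hochberg adjustment, adjusted p = 0.00109). *Tsc22d1*, a leucine zipper protein, rose from 71.3 to 143 CPM (1.01, SE 0.11, adjusted p = 0.0016), and *Osbpl2*, an oxysterol-binding protein, from 50.3 to 87.6 CPM (0.81, SE 0.12, adjusted p = 0.0057). *Vegfa*, the vascular growth factor, rose from 92.3 to 127 CPM (0.46, SE 0.11, adjusted p = 0.0458). *Sh3gl2* was at 0.763 and 2.69 CPM and was not called (adjusted p = 0.155).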

How the data were processed

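RNA of 6 cultures (3 iASPP KO, 3 iASPP WT) was depleted of ribosomal RNA and sequenced as single reads of 42 bases. Per the file headers and the submitters' processing notes, the authors trimmed reads with Cutadapt 2.10, checked them with FastQC 0.11.9, aligned them to GRCm38 (mm10) with STAR 2.7.3, and deposited unnormalized read counts for each gene name, made with featureCounts 2.0.0 on GENCODE vM25 exons by strand. The deposited table of the authors' own DESeq2 comparison (fold changes and p-values) was not used. The Length column of the deposited counts, the summed exon bases of each gene, served for levels per kilobase.

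Groups and batches came from the labels. The test of the counts was edgeR 4.0.16 (R 4.3.3, with filterByExpr, TMM, glmQLFit and glmQLFTest with batch and condition, Benjamini-Hochberg over all 14916 tested genes, threshold 0.05). A standard error is the log2 fold change over the square root of F. Within a batch, log2 CPM (prior count 2) of the 2 libraries were subtracted. The pairing by batch comes from the labels, and same-batch libraries deviated together (r = 0.302, 0.368 and 0.568 over genes). Libraries of 1 condition differed far beyond sampling noise (chi-square per gene 39.7 to 172.5), so none was taken for a copy. The floor of 3 counts covers counting error only, since molecules carried no identifiers; the 95% intervals come from the edgeR fit and include the spread between libraries.

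The members and gene lists were chosen with earlier results of these data known. The genes named are the 10 members, other tested cathepsins, up to 6 called and the 2 most abundant genes of each list, *Ppp1r13l* and the 5 genes most like the member of smallest p. Alternatives were no batch term, DESeq2 1.42.0, other scalings and filters, each batch left out, robust dispersion and a threshold of 0.01; 2 other gene lengths were added after seeing the data. Sequences and shared 42-base stretches came from GENCODE vM21 (same build). Exon overlaps came from the exon coordinates given with the deposited counts. The catalytic residue was located by its conserved residues. The steps were tested on simulated data. ChIP-seq data were not used here. The values of 1 called gene of the hydrolase list are not reported here.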

Additional observations from a re-analysis of the deposited data

How the results depend on the processing

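*Ctsl* and *Ctsd* kept their direction and their call under every alternative with a batch term, and no member was lower in any. Without the batch term (no replicate block) no gene of the whole table passed, so 0 members and 0 genes of each list were called, and *Ppp1r13l* was at −1.38. Without the filter on low counts 4 members were higher (*Ctsl*, *Ctsd*, *Ctsb* and *Ctss*), with 6 sorting genes, 2 hydrolases and 5 envelope genes. DESeq2 called 3 members and 5 sorting genes. Scaling by library totals alone gave 1 sorting gene and, over all genes, 295 higher and 455 lower (median −0.07), against 323 and 291. A minimum of 10 counts in every library gave 4 sorting genes, with 383 higher and 328 lower of 12401 over all genes. Robust dispersion gave 4 sorting genes higher and 1 envelope gene lower, with 383 and 359 of 14916 over all genes. At a threshold of 0.01 the counts were 1 inhibitor, 0 sorting genes, 0 hydrolases, 0 envelope genes higher and 1 lower, with 88 and 78 over all genes. With each batch left out, the counts ran from 2 to 3 members, 1 to 7 inhibitors, 0 to 5 sorting genes, 0 to 1 hydrolases and 1 to 6 envelope genes. Over all genes they were 169 higher and 151 lower of 15437 tested without batch 1 and 174 and 117 of 15236 without batch 2. Without batch 3 they were 793 and 662 of 15261. Among these 3 fits each list's count of higher genes was largest without batch 3, as was the count over all genes. Without the filter 624 and 491 of 31932 were called, and with DESeq2 480 and 407 of 12291 with an adjusted p. With 1 batch left out, *Ctsc* ran from −0.20 to 0.13 (positive without batch 2) and *Ctsf* from −0.14 (without batch 3) to 0.38. The median of the members stayed at 0.27 to 0.44 over 10 alternatives. Per kilobase in iASPP KO, *Ctsl* moved to 1793 with the principal transcript length and *Ctsd* to 1651 without bases shared with neighbours. Both of these moves come from dividing the same CPM by another length. The cause of the other moves was not tested. The fit left 2 residual degrees of freedom per gene and also drew on the spread of the other genes. *Ctsb* had an unadjusted p of 0.0078 (edgeR) and did not pass after adjustment over all tested genes. Differences as small as that of *Ctsb* thus lay near the limit of the test.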
